A study of Homo sapiens with 8 samples.

Results

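UPF1 depletion was examined by RNA-seq in Huh7, an established human liver cancer (hepatocellular carcinoma) line. Cells transfected with UPF1 siRNA (siUPF1, 2 libraries) were compared with cells transfected with a scrambled siRNA (siControl, 2 libraries), which are 4 of the 8 libraries of the series. Both groups are the same line without any other allele or agent named in the labels, and the dose and time of siRNA treatment are not given in the sources used here. The labels do not say whether the libraries came from separate cultures, so p-values measure only the spread between these libraries. Expression is given as FPKM (fragments per kilobase of transcript, scaled to the mapped fragments of a library), and genes with a mean of at least 0.5 FPKM over the 4 libraries were kept, which were 13535 of the 17076 genes listed. An exact permutation test of 2 against 2 libraries cannot reach 0.05, so each gene was tested with limma on log2(FPKM + 1), a scale that understates the change of genes with low FPKM. A gene is said to rise or fall where its unadjusted limma p was under 0.05, the threshold the study used, and adjusted values are given beside it.

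UPF1 is an RNA helicase that drives nonsense-mediated mRNA decay (NMD). In this pathway a ribosome that stops well upstream of an exon junction leaves a protein complex on the mRNA, UPF1 is phosphorylated by SMG1, and the proteins recruited by it, such as the endonuclease SMG6, then cut the mRNA or lead to removal of its cap and tail. Besides transcripts with premature stop codons, NMD acts on normal mRNAs with upstream reading frames or introns in the 3′ untranslated region, among them mRNAs for several NMD factors and for proteins of the amino acid stress response. UPF1 also takes part in the decay of histone mRNAs and of mRNAs bound by Staufen or Regnase proteins.

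The study lists a pair of UPF1 siRNAs by their sense strands and does not say which was used for sequencing. Each sense strand matched the plus strand of chromosome 19 in GRCh37 exactly at 1 place, inside UPF1. The minus strand and the other chromosomes were not searched. The sites are shown because they define the perturbation, with the 7 bases opposite bases 2 to 8 of the antisense strand (its seed) in capitals, taking that strand to start opposite the last base of the sense strand.
UPF1 CDS siRNA, chr19:18967738-18967760: ccaagatgcagttccGCTCCATt
UPF1 3′UTR siRNA, chr19:18977357-18977381: gcttagtccatcagcatCTTATTCt
The 23 bases of the first site lie in coding sequence of exon 14 of 24, and the 25 bases of the second lie in the 3′ untranslated part of exon 24, in the GENCODE transcript with the longest coding sequence.

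UPF1 itself was at 44.5 and 47.4 FPKM in the siControl libraries and at 20.7 and 21.9 FPKM in the siUPF1 libraries. The groups did not overlap, and its level fell by 1.07 on the log2 scale, with a standard error of 0.0928 and a limma adjusted p = 0.0308, which left about the same level in both depleted libraries. Hepatocyte and hepatoma genes were abundant in all 4 libraries: AFP lay between 11130 and 12217 FPKM, ALB between 6550 and 7668, SERPINA1 between 783 and 868, GPC3 between 399 and 440, and HNF4A between 40.6 and 44.5. Of 22 markers of blood, endothelial, stromal and bile duct cells, 10 were listed and 7 had at least 0.5 FPKM on average, with 0 of 7 past the unadjusted limma threshold. Their summed level was 251 and 280 FPKM in the siControl libraries and 261 and 221 FPKM in the siUPF1 libraries, most of it LYZ, without which the sums, mainly EPCAM and SOX9, lay between 56.8 and 61.8 FPKM. Leukocyte and endothelial markers such as PTPRC, CD3E, VWF and CDH5 were not among the genes listed. The endothelial marker PECAM1 and the myeloid markers CD14 and CD68 were listed and were among the 7 tested. In bulk RNA a change in the share of cells and a change in RNA per cell cannot be told apart.

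The second siUPF1 library stood apart from the other 3. Its summed FPKM was 403902, against 432452 to 455592, and its 10 most abundant genes held 15.4% of the sum, against 20.8% to 21.5%. The depth behind these values is unknown, since FPKM does not carry read numbers. Across genes, its log2(FPKM + 1) correlated with the siControl libraries at 0.985 to 0.986, where siUPF1 1 correlated at 0.992 to 0.994. Results for gene groups are therefore given for each siUPF1 library against the mean of the controls, and counts from a fit without siUPF1 2 are given for several groups, with the assumption that the lone siUPF1 library varies like the controls.

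At an unadjusted limma p under 0.05, 2162 of the 13535 genes rose (16.0%) and 746 fell (5.51%), which makes 21.5% in either direction. At an adjusted limma p under 0.1, 371 rose (2.74%) and 136 fell (1.00%), and at 0.05 only 5 genes passed (0.0369%): UPF1, HOXD1, PRTFDC1, CHKB-CPT1B and SERF2-C15ORF63. Without siUPF1 2, 2212 rose (16.3%) and 714 fell (5.28%). The balance of rises and falls depended on scaling: with quantile normalization 1417 rose and 1408 fell, and with each library centred on its median 1602 rose and 1271 fell. The median log2 difference of all genes was 0.057, and medians of gene groups below are relative to it.

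The direction of change followed the base composition of the transcripts. When genes were divided into 10 equal bins by GC content, 36 of 1303 rose and 176 fell in the lowest bin, whereas 536 of 1303 rose and 6 fell in the highest. Across 13024 genes with an annotated transcript, the Spearman correlation of the difference with GC content was 0.54, a description across genes of the same libraries. It was 0.29 for siUPF1 1 and 0.61 for siUPF1 2 against the control mean, and -0.010 between the siControl libraries. The gradient was also steep between the depleted libraries themselves, at 0.59 for siUPF1 2 minus siUPF1 1. Chromosome 19 and chromosome 22, both rich in GC, had 252 of 914 and 99 of 318 genes that rose, and chromosome 13, which is poor in GC, had 14 of 223 that rose and 24 that fell. After removal of the trend with GC content and transcript length from every library, 1454 genes rose (11.2%) and 1423 fell (10.9%), so counts for most gene groups are also given with this trend removed, to be read against these shares. What part library preparation had in this gradient was not tested.

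**Figure D1:**
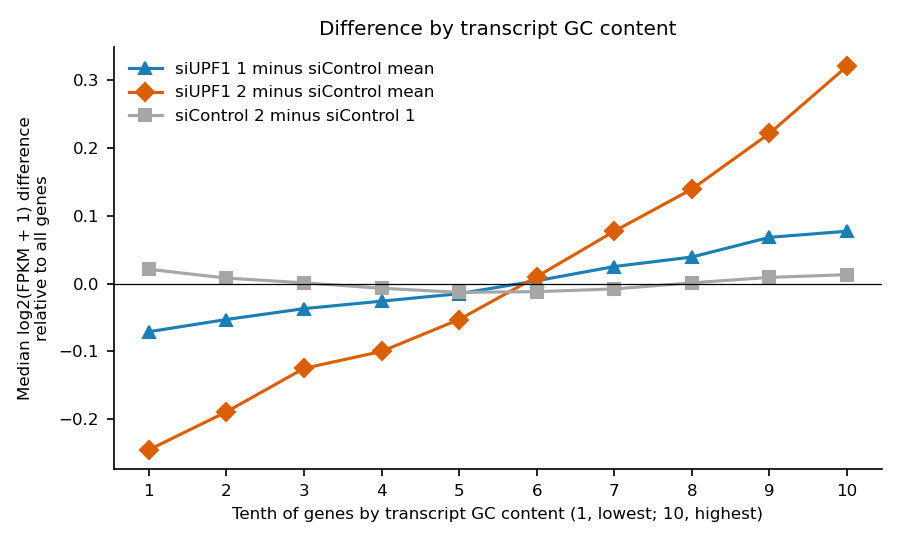
Median difference in log2(FPKM + 1) relative to all genes (vertical axis) for 10 equal bins of genes by transcript GC content (horizontal axis); lines with points show each siUPF1 library minus the siControl mean and siControl 2 minus siControl 1. From the lowest to the highest bin the medians ran from -0.071 to 0.077 in siUPF1 1 and from -0.25 to 0.32 in siUPF1 2, while the siControl libraries differed by at most 0.021.

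The largest changes were sought among well-expressed genes with both siUPF1 libraries beyond both siControl libraries, so agreement in direction was a condition of the choice. CHKB-CPT1B, a readthrough gene that joins the choline kinase gene CHKB to the carnitine palmitoyltransferase gene CPT1B on chromosome 22, was at 2.17 and 2.86 FPKM in the siControl libraries and at 9.31 and 8.42 FPKM in the siUPF1 libraries (log2 fold change 1.5, standard error 0.123, limma adjusted p = 0.0308). Of its neighbours, named after their values were seen, CHKB fell, from 10.4 and 11.4 FPKM to 4.30 and 8.18 FPKM. CPT1B was at 6.39 and 6.25 FPKM in the siControl libraries and at 2.13 and 5.70 FPKM in the siUPF1 libraries and did not pass the unadjusted limma threshold. The 3 genes share exons, so how reads were divided among them is uncertain. MAT2B, the regulatory subunit of the enzyme that makes S-adenosylmethionine, was at 7.69 and 7.73 FPKM in the siControl libraries and at 18.0 and 14.9 FPKM in the siUPF1 libraries (log2 fold change 1.00, limma adjusted p = 0.0579). Its transcript is poor in GC, at 39.6%, and its log2 fold change was 1.10 with the GC trend removed. ARID3A, a DNA-binding protein of the ARID family, was at 25.4 and 27.2 FPKM in the siControl libraries and at 46.6 and 57.4 FPKM in the siUPF1 libraries (log2 fold change 0.95, limma adjusted p = 0.0584). NFKBIB, an inhibitor of NF-kB, RGS3, a regulator of G protein signalling, VWA1, an extracellular matrix protein, TMEM250 and the long non-coding RNA HEIH rose with log2 fold changes from 0.85 (VWA1) to 0.92 (TMEM250). With the GC trend removed these 5 lay between 0.54 (VWA1) and 0.68 (HEIH).

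Among the falls, HOXD1, a homeobox transcription factor, was at 10.1 and 11.7 FPKM in the siControl libraries and at 3.98 and 3.11 FPKM in the siUPF1 libraries (log2 fold change -1.39, limma adjusted p = 0.0336). PRTFDC1, a paralogue of the purine salvage enzyme HPRT1, was at 8.18 and 9.76 FPKM in the siControl libraries and at 3.20 and 3.24 FPKM in the siUPF1 libraries (log2 fold change -1.24, limma adjusted p = 0.0308). The depleted libraries thus agreed closely for PRTFDC1 and less so for RFK, riboflavin kinase, which went from 18.1 and 19.4 FPKM to 10.5 and 6.59 FPKM (log2 fold change -1.08, limma adjusted p = 0.0768). IL1RAP, the shared accessory chain of interleukin-1 receptors, went from 13.6 and 15 FPKM to 7.47 and 5.50 FPKM (log2 fold change -1.04, limma adjusted p = 0.0584). CCL20, a chemokine, went from 79.6 and 87.8 FPKM to 46.9 and 35.0 FPKM (log2 fold change -1.03, limma adjusted p = 0.0584). ERP44, a thioredoxin-like protein that retains clients in the early secretory pathway, went from 19.4 and 21.7 FPKM to 10.4 and 9.93 FPKM (log2 fold change -0.95, limma adjusted p = 0.0579), and TM4SF4, a tetraspan membrane protein, went from 8.45 and 10.2 FPKM to 4.96 and 4.11 FPKM (log2 fold change -0.90, limma adjusted p = 0.0584). Each of these 7 genes kept a log2 fold change of -0.82 or lower with the GC trend removed and -0.78 or lower when any 1 library was left out.

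**Figure D2:**
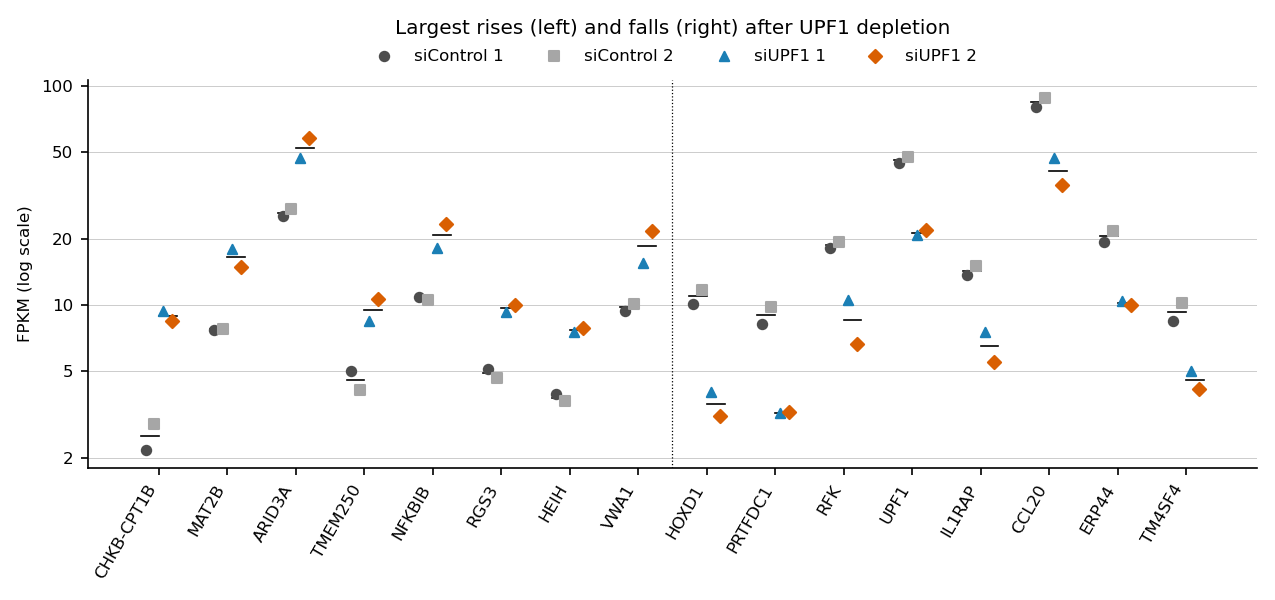
FPKM on a log axis for the genes with the largest rises (left) and falls (right, UPF1 included) among genes with an adjusted limma p under 0.1 and a mean of at least 5 FPKM; each point is a library and each bar a group mean (n = 2). Genes were eligible only where both siUPF1 libraries lay beyond both siControl libraries, for example 18.0 and 14.9 against 7.69 and 7.73 FPKM for MAT2B.

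The 3′ untranslated regions of HOXD1, PRTFDC1, RFK, IL1RAP, CCL20, ERP44 and TM4SF4 held 0 copies of either 7-base stretch in capitals above, GCTCCAT or CTTATTC, searched on the sense strand of the transcript with the longest coding sequence. Over 11457 protein-coding genes with such a region, GCTCCAT was in 8% and CTTATTC in 10.7%. GCTCCAT was in 7.66% of the 1894 genes that rose and in 11.1% of the 630 that fell, whose regions had median lengths of 868 and 1534 bases. CTTATTC was in 5.49% and 16.0% of the same genes. The 103 genes that fell by over 0.5 on the log2 scale had a median length of 1199 bases. Of these, 14.6% held GCTCCAT and 16.5% CTTATTC, against 5.43% and 5.04% of the 258 that rose by over 0.5 (median 794 bases). With the GC trend removed, the genes that rose and fell had regions of nearly equal median length, 1137 and 1138 bases, and held GCTCCAT in 6.30% and 9.85% and CTTATTC in 9.06% and 11.8%. In that fit 15.4% of the 104 genes that fell by over 0.5 held GCTCCAT and 12.5% CTTATTC. Of the 70 that rose by over 0.5, 5.71% and 8.57% did. Genes were also divided into 5 equal bins by length of the region. Within bins, the median log2 fold change with GCTCCAT minus that without lay between 0.014 and 0.048. For CTTATTC this difference lay between -0.093 and -0.026. With the GC trend removed it lay between -0.031 and 0.004 for GCTCCAT and between -0.040 and 0.005 for CTTATTC. A match is a description of these letters and not a binding site, and an effect of the seeds was not tested.

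NMD factors other than UPF1 were higher as a group after depletion. Of 14 factors tested 5 rose and 0 fell, 35.7% against 16.0% of all genes. Their median lay 0.13 above that of all genes, at 0.068 in siUPF1 1 and 0.15 in siUPF1 2, and -0.019 between the siControl libraries. The median was 0.15 with the GC trend removed, where 4 rose and 1 fell, and without siUPF1 2 the count was again 5 rose and 0 fell. SMG9, a regulator of the SMG1 kinase, was at 5.36 and 5.46 FPKM in the siControl libraries and at 7.68 and 9.55 FPKM in the siUPF1 libraries (log2 fold change 0.58, limma adjusted p = 0.0835). UPF2, which bridges UPF1 to the exon junction complex, went from 10.5 and 10.8 FPKM to 13.4 and 15.4 FPKM (log2 fold change 0.40, limma adjusted p = 0.117). UPF3B, which joins UPF2 to that complex, went from 7.87 and 8.33 FPKM to 10.2 and 11.5 FPKM (log2 fold change 0.38, limma adjusted p = 0.118). SMG6, the endonuclease of the pathway, went from 3.38 and 2.90 FPKM to 4.01 and 4.50 FPKM (log2 fold change 0.35, limma adjusted p = 0.149), and PNRC2, a decapping adaptor, from 41.0 and 43.2 FPKM to 58.7 and 48.7 FPKM (log2 fold change 0.34, limma adjusted p = 0.173). UPF2, UPF3B and PNRC2 have transcripts poor in GC and had larger log2 fold changes with the trend removed, 0.44, 0.45 and 0.46. SMG6 had 0.18 there and did not pass the threshold. The remaining 9 had log2 fold changes between -0.009 (GNL2) and 0.21 (UPF3A), and DHX34, an NMD helicase at 0.001, was at -0.24 with the GC trend removed and past the unadjusted limma threshold.

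**Figure D3:**
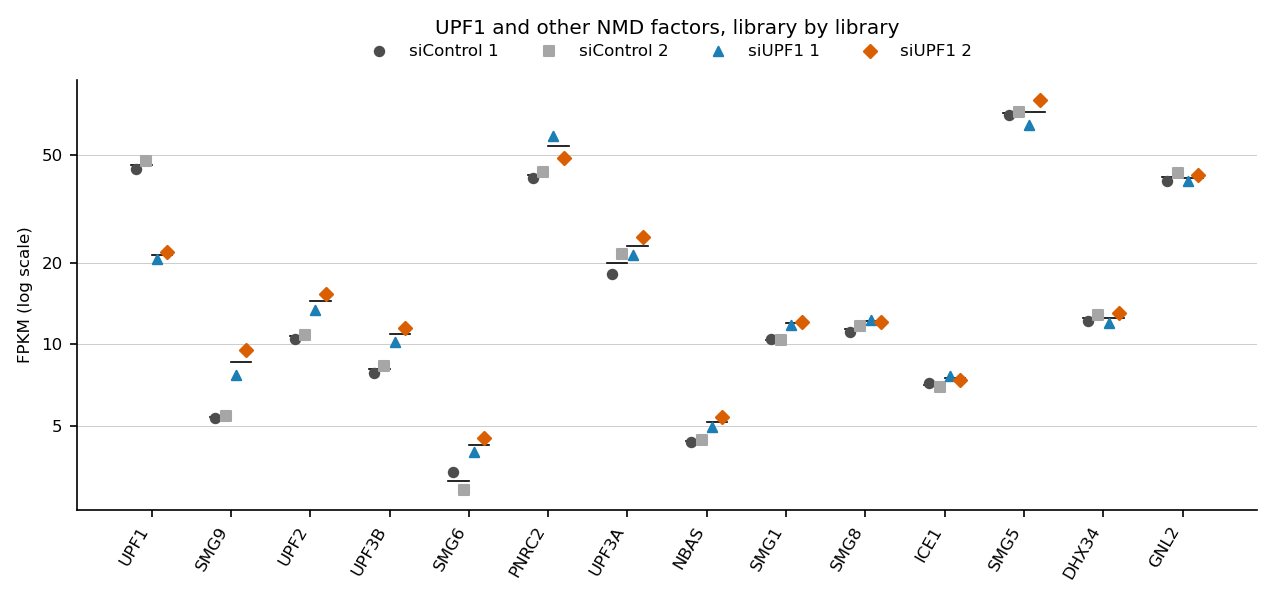
FPKM on a log axis for UPF1 and 13 other NMD factors, in order of log2 fold change; each point is a library and each bar a group mean (n = 2). UPF1 fell from 44.5 and 47.4 FPKM to 20.7 and 21.9 FPKM. Both siUPF1 libraries lay above both siControl libraries for 9 of 14 NMD factors tested, with SMG9, UPF2, UPF3B, SMG6 and PNRC2 among them. The same held for 5080 of all 13535 genes.

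Other groups of the decay machinery moved little. Of 12 genes of the exon junction complex, the mark that splicing leaves on mRNA, only UPF3B rose and 0 fell, with a median of -0.025. Of 14 UPF1 partners in other decay pathways, TRIM71 and MEX3D rose and 0 fell, and 2 rose and 2 fell with the GC trend removed. TRIM71, an RNA-binding ubiquitin ligase of early development, went from 19.2 and 20 FPKM to 27.5 and 25.7 FPKM (log2 fold change 0.42, limma adjusted p = 0.0889), and MEX3D, an RNA-binding protein, had a log2 fold change of 0.54 (0.21 with the GC trend removed). Of 49 genes for decapping, deadenylation and the exosome 4 rose and 3 fell, with a median of -0.079 that was -0.004 with the GC trend removed, where 2 rose and 4 fell. Among the falls was TOB1, an antiproliferative protein that recruits the deadenylase (log2 fold change -0.33).

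The study compared cumulative distributions for its own list of endogenous NMD targets and reported that they went up with UPF1 depletion. That list and measure were not used here. Another list, of transcripts reported in the literature as sensitive to NMD, was not shifted as a group. Of 40 tested 8 rose and 3 fell, 20% against 16.0% of all genes for the rises, and their median was -0.050 relative to all genes, at -0.047 in siUPF1 1 and -0.045 in siUPF1 2. With the GC trend removed 7 rose and 5 fell, and without siUPF1 2 7 rose and 1 fell. UPP1, uridine phosphorylase, rose from 4.14 and 5.02 FPKM to 7.03 and 7.44 FPKM (log2 fold change 0.57, limma adjusted p = 0.0817). The 3 that fell were SRSF7 and TRA2A, which encode splicing factors, and ASNS, asparagine synthetase, the last pair chosen after their values were seen. SRSF7 went from 56.0 and 59.1 FPKM to 49.9 and 41.3 FPKM (log2 fold change -0.34, limma adjusted p = 0.174). Of 23 long non-coding hosts of small nucleolar RNAs, 3 rose and 3 fell, and 3 rose and 5 fell with the GC trend removed. SNHG7 went from 62.1 and 66.4 FPKM to 86.7 and 93.2 FPKM (log2 fold change 0.48), and SNHG9 from 10.6 and 11.2 FPKM to 7.86 and 6.90 FPKM (log2 fold change -0.51), so hosts of one type moved in opposite directions in both libraries.

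A second view of NMD came from annotated transcript structure. An exon junction over 50 bases after the stop codon is the arrangement that marks a transcript for NMD. In 71 tested genes annotated as protein coding, the lifted annotation places such a junction in the transcript with the longest coding sequence. The junctions were not checked gene by gene, and genes better known as non-coding, such as TUG1 and LINC00999, are included. Of the 71 genes 20 rose and 3 fell, 28.2% and 4.23%, against 16.5% and 5.51% of the 11524 genes without such a junction. Relative to all genes their median was 0.10, at 0.088 in siUPF1 1 and 0.12 in siUPF1 2 and 0.000 between the siControl libraries. Without siUPF1 2, 22 rose and 1 fell. After removal of the GC trend 13 rose and 5 fell, with a median of 0.044. CERS1, a ceramide synthase, went from 1.66 and 2.45 FPKM to 4.36 and 4.73 FPKM (log2 fold change 0.87, limma adjusted p = 0.0645). TXNRD2, mitochondrial thioredoxin reductase, went from 9.39 and 10.9 FPKM to 14.3 and 17.4 FPKM (log2 fold change 0.59, limma adjusted p = 0.0835). MARVELD1 went from 4.84 and 5.44 FPKM to 7.97 and 8.22 FPKM (log2 fold change 0.57, limma adjusted p = 0.0768), and PRLR, the prolactin receptor, whose transcript is poor in GC, from 4.18 and 3.92 FPKM to 6.35 and 5.19 FPKM (log2 fold change 0.42, and 0.46 with the GC trend removed). The 3 that fell were MARCKS, ANP32E and CABYR, with log2 fold changes of -0.29, -0.23 and -0.30. By contrast, 5616 genes with any transcript annotated as an NMD target rose in 16.4% and fell in 4.95% of cases, close to 16.8% and 6.02% of the 5996 genes without one. FPKM is given per gene, so a change of 1 transcript among several is diluted.

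Genes for protein synthesis and RNA processing had medians below that of all genes, and so did abundant genes in general. The 571 genes with a mean over 100 FPKM had a median of -0.086, with 32 that rose and 34 that fell, and with the GC trend removed 20 of 547 rose and 106 fell. Ribosomal protein genes, with a median of 522 FPKM, are among the most abundant, and the part of abundance in the values below was not tested. Of 83 cytosolic ribosomal protein genes 0 rose and 9 fell, and the median was -0.18, at -0.14 in siUPF1 1 and -0.22 in siUPF1 2. It was -0.060 between the siControl libraries, -0.081 with quantile normalization and -0.15 with the GC trend removed, where 1 rose and 22 fell. Without siUPF1 2, 0 rose and 3 fell. RPL22L1, a paralogue of RPL22, had the lowest p, from 11.9 and 13.2 FPKM to 10.1 and 9.86 FPKM (log2 fold change -0.30, limma adjusted p = 0.161). Of 48 translation initiation factors 1 rose and 3 fell, with a median of -0.10 and about -0.08 in each library, and 1 rose and 8 fell with the GC trend removed, or 2 and 1 without siUPF1 2. EIF2B5 and EIF2B1, subunits of the same exchange factor for eIF2, moved in opposite directions: EIF2B5 went from 15.6 and 16.7 FPKM to 19.3 and 19.3 FPKM (log2 fold change 0.25), and EIF2B1 from 23.7 and 24.8 FPKM to 19 and 18.0 FPKM (log2 fold change -0.37). Mitochondrial ribosomal proteins (2 rose and 6 fell of 77), aminoacyl-tRNA synthetases (2 rose and 1 fell of 37) and proteasome subunits (3 rose and 0 fell of 35) had medians between -0.072 and -0.028. Removal of the GC trend made these counts 1 and 8, 2 and 4, and 2 and 2, and without siUPF1 2 the first was 4 and 2. MRPL10 was an exception among them, from 13.9 and 14.9 FPKM to 23 and 20.2 FPKM (log2 fold change 0.55, limma adjusted p = 0.0800).

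Of 16 SR proteins 0 rose and 2 fell (SRSF7 and TRA2A), and of 26 hnRNP proteins, which package nuclear RNA, 0 rose and 2 fell. These falls made up 12.5% and 7.69% of the lists. Of all genes 16.0% rose and 5.51% fell. HNRNPAB went from 157 and 167 FPKM to 107 and 109 FPKM (log2 fold change -0.58, limma adjusted p = 0.0645), and -0.70 with the GC trend removed. HNRNPH3, chosen after its values were seen, had a log2 fold change of -0.42. The SR protein median was -0.15, at -0.051 in siUPF1 1 and -0.20 in siUPF1 2, and -0.077 with the GC trend removed, whereas the hnRNP median was -0.090 and -0.080 in the libraries and -0.036 after removal, where 1 rose and 3 fell. Without siUPF1 2, 0 of 16 SR proteins passed the threshold.

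The mRNAs of the mitochondrial genome, which encode core subunits of the respiratory chain, separated the depleted libraries. Of 13 tested, 0 rose and 0 fell, with a median of -0.48 that was -0.076 in siUPF1 1 and -0.90 in siUPF1 2. ATP6 was at 10789 and 11671 FPKM in the siControl libraries, at 10925 FPKM in siUPF1 1 and at 5581 FPKM in siUPF1 2. ND3 was at 3069 and 3320 FPKM in the siControl libraries and at 2971 and 1382 FPKM in the siUPF1 libraries. ND6, the 1 mRNA made from the other strand, was at 826 and 843 FPKM in the siControl libraries and at 886 and 874 FPKM in the siUPF1 libraries, so 12 of 13 were lowest in siUPF1 2 and ND6 was not. With siUPF1 1 left out, 12 fell. The 74 nuclear-encoded subunits had a median of -0.050 in siUPF1 1 and -0.13 in siUPF1 2, with 2 that rose and 5 that fell, or 2 and 7 with the GC trend removed. These mRNAs were among the most abundant of all, and their level moved with the summed FPKM of siUPF1 2. Their part in the scaling of that library was not tested.

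**Figure D4:**
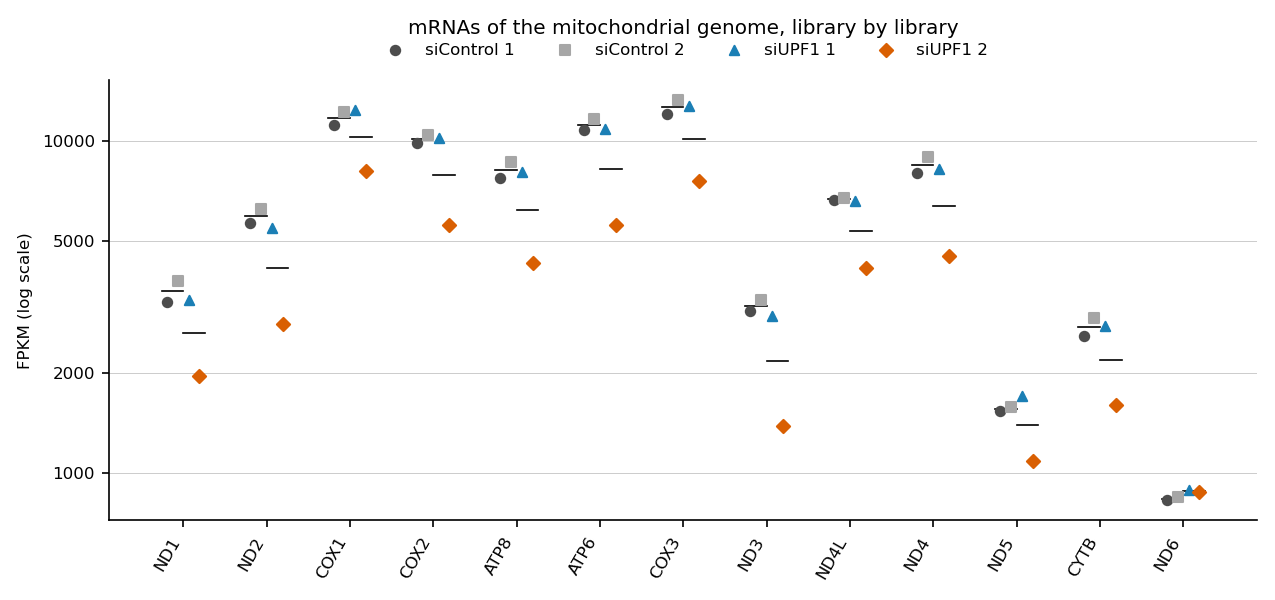
FPKM on a log axis for the 13 mRNAs of the mitochondrial genome; each point is a library and each bar a group mean (n = 2). Apart from ND6, the value in siUPF1 2 lay below those in the other 3 libraries, as for ATP6 with 5581 FPKM against 10789 to 11671 FPKM.

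Stress genes did not move as blocks. Among genes of the ATF4 and amino acid response 30% rose and 10% fell, against 16.0% and 5.51% of all genes. Of 30 genes of the ATF4 and amino acid response 9 rose and 3 fell, with a median of 0.073 that was -0.025 in siUPF1 1, 0.078 in siUPF1 2 and -0.032 with the GC trend removed, where 8 rose and 7 fell. SLC7A5, the light chain of the large neutral amino acid transporter, went from 69.0 and 76.1 FPKM to 109 and 116 FPKM (log2 fold change 0.63, limma adjusted p = 0.0645). Its partner chain SLC3A2, the regulator ATF4 itself and DDIT3, all chosen after their values were seen, rose with log2 fold changes of 0.37, 0.32 and 0.26. PSAT1, MTHFD2 and ASNS, which make serine, folate units and asparagine, fell, PSAT1 from 179 and 198 FPKM to 157 and 136 FPKM (log2 fold change -0.36, limma adjusted p = 0.149). Of 27 immediate early genes 6 rose and 1 fell, and 1 rose and 7 fell with the GC trend removed, or 5 and 3 without siUPF1 2. JUN went from 19 and 20.4 FPKM to 24.0 and 26.0 FPKM (log2 fold change 0.33), and DUSP1, the MAP kinase phosphatase, from 10.5 and 10.8 FPKM to 8.39 and 7.49 FPKM (log2 fold change -0.39, limma adjusted p = 0.112). Endoplasmic reticulum chaperones (1 rose and 1 fell of 28) and heat shock chaperones (1 rose and 3 fell of 23) had medians of -0.078 and -0.12, and counts of 1 and 6 and of 2 and 4 with the GC trend removed. The small heat shock protein HSPB8 was the 1 that rose in the latter, from 1.86 and 1.80 FPKM to 2.77 and 2.79 FPKM (log2 fold change 0.42). Of 22 p53 target genes 3 rose and 0 fell, and 13.6% that rose is below the 16.0% of all genes. TP53I3 had the lowest p among them (log2 fold change 0.34). Of 13 interferon-induced genes 3 rose (23.1%) and 0 fell, and the exonuclease ISG20 had the lowest p (log2 fold change 0.48). After removal of the GC trend these were 2 and 3 for the p53 targets and 2 and 0 for the interferon-induced genes.

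Among regulators of cell death, 8 of 27 genes of the BCL2 family and caspases rose and 2 fell, 29.6% and 7.41% against 16.0% and 5.51% of all genes, with a median of 0.10, at 0.095 in siUPF1 1 and 0.040 in siUPF1 2. With the GC trend removed 7 rose and 3 fell, and without siUPF1 2 9 rose and 2 fell. BMF, a BH3-only activator of apoptosis, went from 3.31 and 3.29 FPKM to 5.14 and 4.88 FPKM (log2 fold change 0.48, limma adjusted p = 0.0804). XIAP, an inhibitor of caspases, went from 4.65 and 4.29 FPKM to 3.64 and 3.26 FPKM (log2 fold change -0.30), and CYCS, cytochrome c, chosen after its values were seen, had -0.45. The members that rose act on both sides: CASP6 and PMAIP1 promote apoptosis and BCL2L2 opposes it, with log2 fold changes of 0.45, 0.31 and 0.49, these 3 also chosen after their values were seen. Of 26 G1 regulators 5 rose (19.2%) and 2 fell (7.69%), but 3 rose and 6 fell with the GC trend removed. CDKN1C, the CDK inhibitor p57, had the largest of these changes, from 4.42 and 4.40 FPKM to 8.33 and 9.23 FPKM (log2 fold change 0.85, limma adjusted p = 0.0579), and CDK6 fell from 4.42 and 4.44 FPKM to 3.65 and 3.30 FPKM (log2 fold change -0.28). DNA replication genes (3 rose and 2 fell of 49, or 3 and 7 with the GC trend removed) included POLD4, a small subunit of DNA polymerase delta, from 10.3 and 11 FPKM to 17.2 and 18.5 FPKM (log2 fold change 0.69, limma adjusted p = 0.0584), and ORC6, of the origin recognition complex, from 23 and 26.2 FPKM to 17.5 and 15.7 FPKM (log2 fold change -0.54). Mitosis and kinetochore genes (2 rose and 2 fell of 51) had a median of -0.13 that was -0.034 with the GC trend removed, where 3 rose and 7 fell. For 47 replication-dependent histone genes, where 2 rose and 7 fell, the siControl libraries differed from each other by -0.24 at the median, more than the group median of -0.15. Without siUPF1 2 these counts were 6 and 8, and with the GC trend removed 1 of 46 rose and 11 fell. These mRNAs lack poly(A) tails and have near-identical copies, so their values in mRNA libraries are uncertain.

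In signalling pathways the calls were mixed. Rises made up 14.7% of the TGF-beta pathway, 25% of the WNT pathway and 16.2% of the MAP kinase cascade, against 16.0% of all genes. Falls made up 5.88%, 3.12% and 8.11%, against 5.51% of all genes. Of 34 TGF-beta pathway genes 5 rose and 2 fell, yet the median was -0.14, at -0.067 in siUPF1 1 and -0.17 in siUPF1 2, and 2 rose and 10 fell with the GC trend removed, or 4 and 4 without siUPF1 2. The receptor TGFBR1 went from 3.84 and 4.27 FPKM to 5.76 and 5.13 FPKM (log2 fold change 0.35), and ID2, a target and inhibitor of basic helix-loop-helix factors, from 86.0 and 94.0 FPKM to 71.3 and 51.0 FPKM (log2 fold change -0.57). Of 32 WNT pathway genes 8 rose and 1 fell, with medians of 0.076 and 0.078 in the libraries and 0.005 after removal of the GC trend, where 5 rose and 2 fell, and without siUPF1 2 these were 9 and 0. The receptor FZD7 went from 6.51 and 6.53 FPKM to 9.66 and 9.40 FPKM (log2 fold change 0.49, limma adjusted p = 0.0793), and the transcription factor TCF7L2 fell with a log2 fold change of -0.26. Of 37 MAP kinase cascade genes 6 rose and 3 fell, but 2 rose and 6 fell with the GC trend removed and 3 and 3 without siUPF1 2. Among the falls was MAP2K1, which phosphorylates ERK, from 20.7 and 22.6 FPKM to 16.6 and 14.4 FPKM (log2 fold change -0.46, limma adjusted p = 0.0988).

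Genes of liver function changed one by one. Among 12 oncofetal genes and albumin 1 rose and 3 fell, also with the GC trend removed, and 3 rose and 4 fell without siUPF1 2. PEG10, an imprinted gene derived from a retrotransposon, went from 247 and 248 FPKM to 153 and 139 FPKM (log2 fold change -0.76, limma adjusted p = 0.0584), and LIN28B, which blocks let-7 maturation, from 47.4 and 48.2 FPKM to 35.1 and 27.1 FPKM (log2 fold change -0.61, limma adjusted p = 0.0848). AHSG, the plasma protein fetuin-A, had a log2 fold change of -0.27 and IGF2, a fetal growth factor, one of 0.27 that was 0.097 with the GC trend removed. AFP overlapped between the groups. Of 53 secreted plasma, clotting and complement proteins 6 rose and 8 fell, or 5 and 12 with the GC trend removed. HP, haptoglobin, went from 19 and 20.3 FPKM to 11.7 and 10.5 FPKM (log2 fold change -0.77, limma adjusted p = 0.0584), and MASP1, a protease of the lectin pathway, from 25.6 and 26.4 FPKM to 34.0 and 34.0 FPKM (log2 fold change 0.37). Of 23 genes for apolipoproteins and lipoprotein assembly 6 rose and 3 fell, with a median of 0.058, but 2 rose and 4 fell with the GC trend removed, with a median of -0.023, and 3 rose and 4 fell without siUPF1 2. MTTP, which loads lipid onto apolipoprotein B, went from 58.5 and 64.2 FPKM to 38.1 and 33.7 FPKM (log2 fold change -0.76, limma adjusted p = 0.0584), while APOB itself lay between 298 and 313 FPKM in all 4 libraries. LRP1, a receptor for lipoprotein remnants, rose with a log2 fold change of 0.43.

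Metallothioneins and iron genes had the lowest medians among the liver lists, as the plot of list medians shows. Of 7 metallothioneins, small proteins that bind zinc and copper, 0 rose and 3 fell (MT1E, MT1A and MT1M), with a median of -0.27, at -0.34 in each siUPF1 library and 0.013 between the siControl libraries. With the GC trend removed 6 of 7 fell, in a fit where 10.9% of all genes fell, against 5.51% without that removal. MT1E went from 91.5 and 90.5 FPKM to 74.8 and 74.3 FPKM (log2 fold change -0.28, limma adjusted p = 0.149), and MT2A, the most abundant, from 180 and 189 FPKM to 159 and 168 FPKM (log2 fold change -0.17, limma adjusted p = 0.314). The genes are close copies of each other, so the division of reads among them is uncertain. Of 19 iron genes 2 rose and 3 fell, with a median of -0.22, at -0.14 in siUPF1 1 and -0.23 in siUPF1 2, which was -0.063 with quantile normalization and -0.11 with the GC trend removed, where 1 rose and 8 fell. Without siUPF1 2, 2 iron genes rose and 5 fell. TFRC, the transferrin receptor, went from 106 and 117 FPKM to 84.8 and 78.6 FPKM (log2 fold change -0.44, limma adjusted p = 0.0937). The other two that fell were the iron exporter SLC40A1 and the hormone gene HAMP, with log2 fold changes of -0.60 and -0.53, both chosen after their values were seen. TMPRSS6, a protease that restrains HAMP, rose with a log2 fold change of 0.39 that was 0.14 with the GC trend removed. Of 60 drug and alcohol metabolizing enzymes 14 rose (23.3%) and 6 fell (10%), against 16.0% and 5.51% of all genes. With the GC trend removed 9 rose and 7 fell. ALDH3B1, an aldehyde dehydrogenase, went from 1.08 and 1.19 FPKM to 2.03 and 2.1 FPKM (log2 fold change 0.52, limma adjusted p = 0.0793). FMO1, a flavin monooxygenase, went from 1.84 and 1.5 FPKM to 0.746 and 0.622 FPKM (log2 fold change -0.66, limma adjusted p = 0.0731). Glycolysis and gluconeogenesis genes (2 rose and 2 fell of 21) had a median of -0.073, and 0 rose and 8 fell with the GC trend removed, or 0 and 2 without siUPF1 2. PGK1, phosphoglycerate kinase, went from 31.1 and 31.5 FPKM to 24.8 and 21.2 FPKM (log2 fold change -0.43, limma adjusted p = 0.106).

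**Figure D5:**
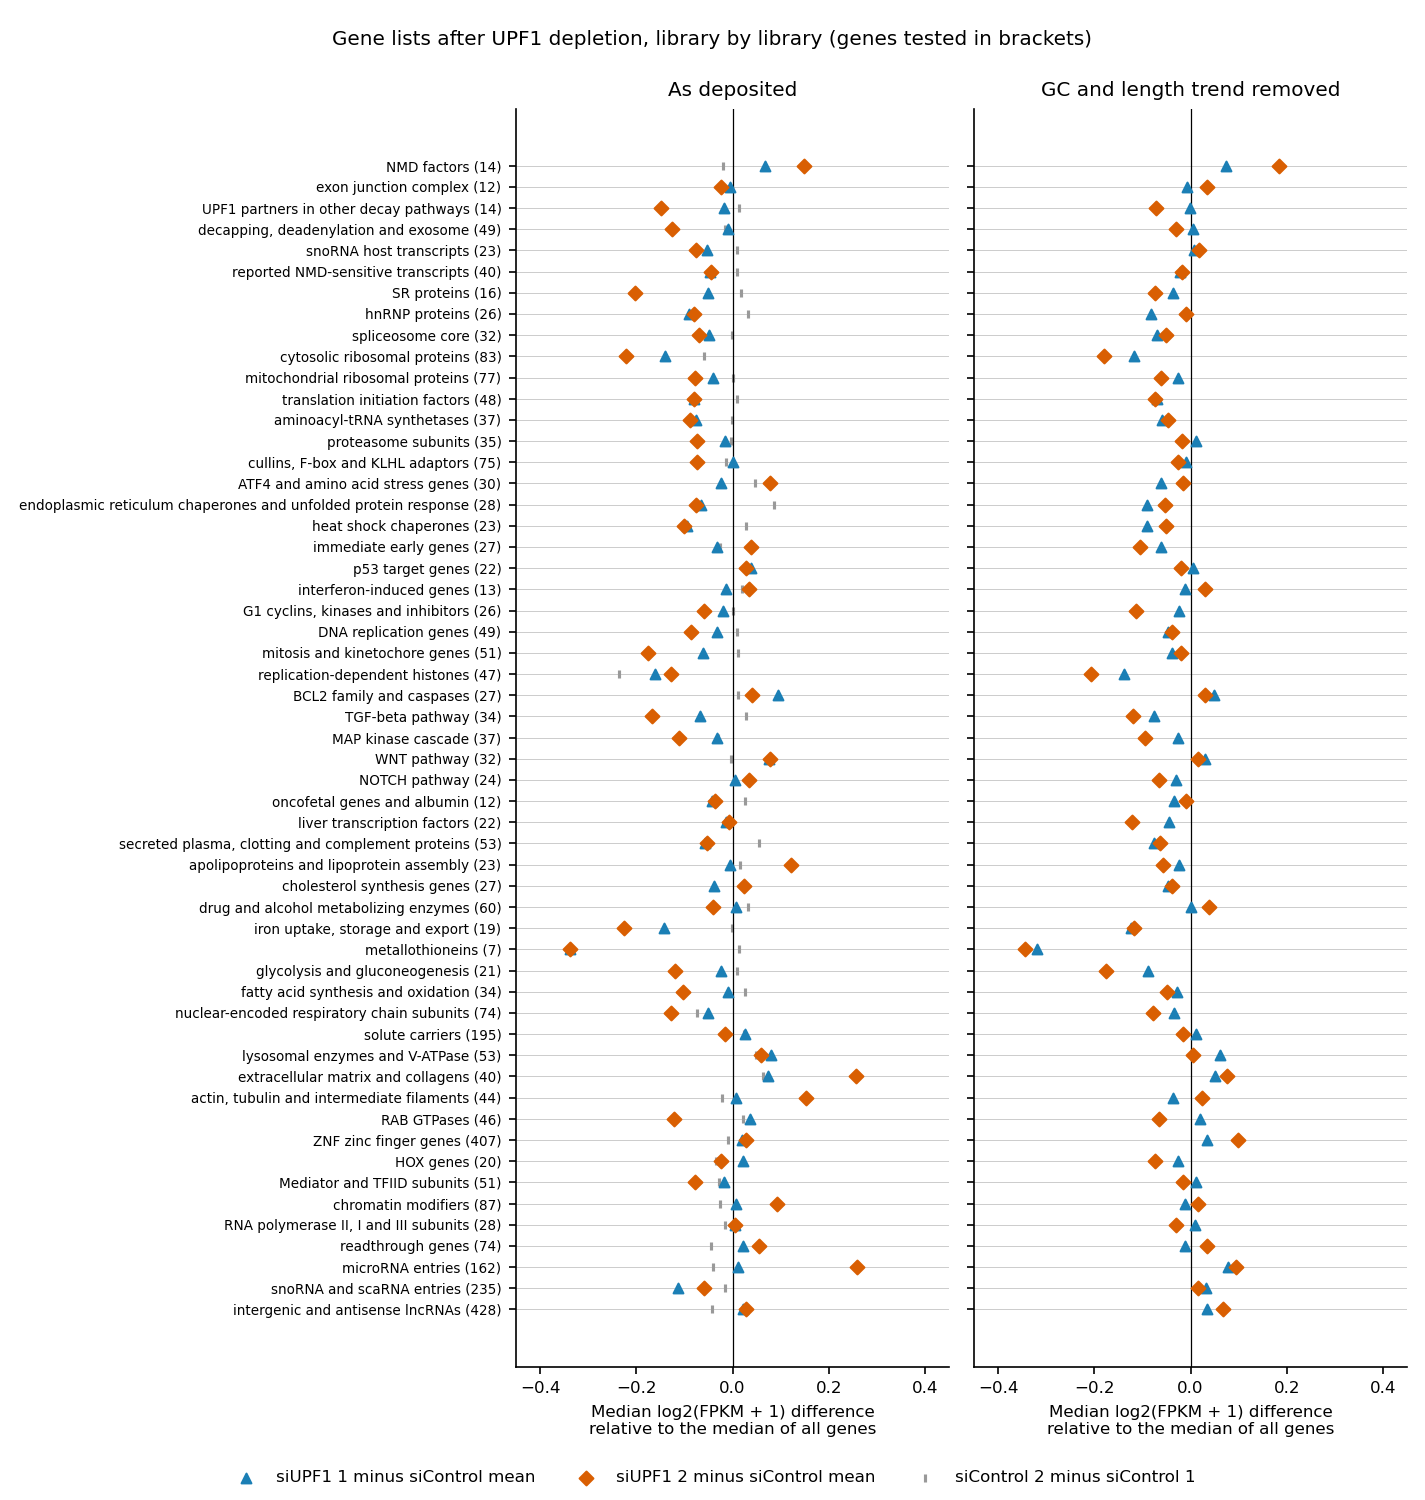
Median difference in log2(FPKM + 1) relative to all genes (horizontal axis) for each gene list (rows, with the number of genes tested), as deposited (left) and with the GC and length trend removed (right); points show each siUPF1 library minus the siControl mean, and ticks on the left siControl 2 minus siControl 1. Without the mRNAs of the mitochondrial genome, which are not plotted here, metallothioneins lay lowest, at -0.34 in each library as deposited, and NMD factors lay above 0 in both libraries, at 0.068 and 0.15.

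Extracellular matrix and collagen genes had the highest share of rises among the lists of 20 or more genes. Of 40 tested 18 rose and 2 fell, 45% against 16.0% of all genes, with a median of 0.15 that was 0.073 in siUPF1 1 and 0.26 in siUPF1 2. Without siUPF1 2, 15 rose and 3 fell. With the GC trend removed 10 rose and 4 fell, against 11.2% and 10.9% of all genes, and the median was 0.046. COL6A1, a chain of collagen VI, went from 2.42 and 2.77 FPKM to 4.23 and 5.63 FPKM (log2 fold change 0.72, limma adjusted p = 0.0793), and SDC1, syndecan-1, from 50.8 and 53.6 FPKM to 39.5 and 42.6 FPKM (log2 fold change -0.34, and -0.55 with the GC trend removed). Of 53 lysosomal genes 11 rose and 2 fell, 20.8% and 3.77% against 16.0% and 5.51% of all genes. With the GC trend removed 7 rose and 3 fell, against 11.2% and 10.9% of all genes. CTSF, a cysteine protease, rose with a log2 fold change of 0.44, and LIPA, the acid lipase, went from 27.9 and 32.2 FPKM to 23.3 and 19.2 FPKM (log2 fold change -0.48). Of 44 genes for actin, tubulin and intermediate filaments 9 rose and 1 fell, with a median of 0.088, but 6 rose and 7 fell with the GC trend removed, with a median of -0.007. KRT23, a keratin, fell from 11 and 10.8 FPKM to 6.72 and 7.38 FPKM (log2 fold change -0.57, limma adjusted p = 0.0731). Of 46 RAB GTPases 9 rose (19.6%) and 2 fell (4.35%), or 7 and 4 with the GC trend removed. RAB8B, which directs vesicles to the plasma membrane, went from 16.7 and 18.4 FPKM to 12.1 and 8.29 FPKM (log2 fold change -0.75, limma adjusted p = 0.0884).

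Among gene regulators, 60 of 407 ZNF zinc finger genes rose and 10 fell, near the share of rises among all genes. After removal of the GC trend 67 rose and 18 fell, 67 of 407 against 11.2% of all genes, and the median was 0.068, at 0.034 in siUPF1 1 and 0.099 in siUPF1 2. ZNF875 went from 5.86 and 4.97 FPKM to 9.16 and 9.53 FPKM (log2 fold change 0.69, limma adjusted p = 0.0623). Of 87 chromatin modifiers 12 rose and 1 fell, but 10 rose and 8 fell with the GC trend removed. The 1 that fell was KAT2B, the acetyltransferase PCAF, from 3.87 and 3.98 FPKM to 2.69 and 2.56 FPKM (log2 fold change -0.44, limma adjusted p = 0.0835). Of 20 HOX genes 3 rose and 2 fell, but 1 rose and 6 fell with the GC trend removed, with HOXD1 among the latter and HOXA3 among the former of the first count (log2 fold change 0.33).

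The median of the microRNA entries differed between the depleted libraries, and those of other non-coding entries less so. Of all genes 16.0% rose and 5.51% fell, against 18.5% and 4.94% of microRNA entries and 8.09% and 12.3% of snoRNA and scaRNA entries. The shares were 14% and 2.1% for intergenic and antisense long non-coding RNAs and 18.9% and 8.11% for readthrough genes. Of 162 microRNA entries, which in mRNA libraries hold reads of longer host or precursor transcripts, 30 rose and 8 fell, with a median of 0.011 in siUPF1 1 and 0.26 in siUPF1 2. Without siUPF1 2, 44 rose and 23 fell, and with the GC trend removed 8 of 82 rose and 6 fell. Of 235 snoRNA and scaRNA entries 19 rose and 29 fell, with a median of -0.11 in siUPF1 1 and -0.060 in siUPF1 2. With the GC trend removed 26 of 182 rose and 19 fell, with a median of 0.023, in a fit where 11.2% of all genes rose and 10.9% fell. The lowest p among the falls was that of SNORD4B, from 4.54 and 3.91 FPKM to 1.28 and 1.79 FPKM (log2 fold change -1.05, limma adjusted p = 0.0584). Of 428 intergenic and antisense long non-coding RNAs 60 rose and 9 fell, with a median of 0.022 in siUPF1 1 and 0.029 in siUPF1 2, and 53 of 418 rose and 21 fell with the GC trend removed. LINC01578 went from 16.3 and 17.6 FPKM to 24.0 and 24.5 FPKM (log2 fold change 0.49, and 0.57 with the GC trend removed). Of 74 readthrough genes 14 rose and 6 fell, or 7 and 4 of 56 with the GC trend removed and 23 and 8 without siUPF1 2, with a median of 0.021 in siUPF1 1 and 0.055 in siUPF1 2. Beside CHKB-CPT1B these included SERF2-C15ORF63, from 0.855 and 0.677 FPKM to 2.94 and 3.28 FPKM (log2 fold change 1.22, limma adjusted p = 0.0308).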

How the data were processed

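RNA of Huh7 cells was sequenced after a TruSeq Stranded mRNA preparation. The authors deposited FPKM values per gene, and the submitters' processing notes name Trimmomatic 0.38, FastQC 0.11.7, CASAVA, HISAT2 2.1.0, StringTie 1.3.4d and the builds hg19 and mm10. FPKM is scaled within each library, so a change in abundant RNAs shifts all other values, and steps of whole reads were not found in the low values, so depth and counting error are unknown. Genes with a mean of at least 0.5 FPKM were fitted with limma 3.58.1 (R 4.3.3, eBayes with trend, two-sided) on log2(FPKM + 1), with Benjamini-Hochberg adjustment over all of them. A loess trend (span 0.5) with transcript GC content and length was removed in an alternative fit, using GENCODE 44 lifted to GRCh37. The fit was tested on simulated data. Python 3.11.15 with pandas 2.3.3, numpy 2.4.6 and matplotlib 3.10.9 made the summaries.

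Group medians are differences in log2(FPKM + 1) minus the median of all genes. The genes and lists were chosen with earlier results of these data known. Named genes were UPF1, HOXD1, PRTFDC1 and CHKB-CPT1B, and those with an adjusted p under 0.05. The 8 largest rises and 8 largest falls were added, among genes with an adjusted p under 0.1 and a mean of at least 5 FPKM. These also had to have both siUPF1 libraries beyond both siControl libraries. The member of each list with the lowest p in each direction, and members of lists of up to 15 genes, were named as well. Hepatocyte markers were also listed, and any further gene was picked once its values were known. Values of 1 NMD factor and 1 marker are not reported here.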

Additional observations from a re-analysis of the deposited data

How the results depend on the processing

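UPF1 had a log2 fold change between -1.30 (GC and length trend removed) and -1.03 and passed the unadjusted limma threshold in every alternative run. The number of genes past that threshold was 2908, against 1862 with a minimum of 5 FPKM, where fewer genes were tested, and 1435 to 5896 in the fits with 1 library left out, the highest without siUPF1 1. Rises numbered 1280 with that minimum, 1417 with quantile normalization and 941 to 3675 with 1 library left out, and falls 1408 with quantile normalization, 1271 with median centring, 1423 after removal of the GC and length trend and 365 to 2221 with 1 library left out. Genes with an adjusted p under 0.1 numbered 0 with no FPKM minimum, 161 after quantile normalization, 163 after median centring, 817 after removal of the GC and length trend, 1054 with all 8 libraries in one fit and 188 to 5649 with 1 library left out, against 507. At an adjusted p under 0.05 these were 0, 0, 0, 158, 368 and 115 to 4539, and 316 with a minimum of 5 FPKM, against 5. The other causes were not tested.

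With the replicate number as a block (replicate block), 2586 genes passed the unadjusted limma threshold (1979 rose and 607 fell), 93 an adjusted p under 0.1 and 0 an adjusted p under 0.05. The numbers share no stated culture or day, and deviations of same-numbered libraries correlated at -0.129 across genes. With the numbers crossed, an alternative chosen after seeing the data, 3102 genes passed the unadjusted limma threshold, 672 an adjusted p under 0.1 and 90 an adjusted p under 0.05.

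Of 99 genes called and described, 30 missed the unadjusted limma threshold without siControl 1, with log2 fold changes from -0.38 to -0.24 and from 0.20 to 0.35, and 29 without siControl 2, from -0.39 to -0.14 and from 0.26 to 0.37. These included PNRC2, UPF3B, JUN and ATF4 in the first case and PNRC2, SMG6, DUSP1 and TFRC in the second. Without siUPF1 2 the 6 that missed it were ANP32E, CABYR, DDIT3, SRSF7, TCF7L2 and TRA2A, and without siUPF1 1 the 2 were PMAIP1 and PNRC2. With the GC and length trend removed ANP32E, IGF2, RPL22L1, SMG6 and TMPRSS6 missed it. No called gene changed direction in any alternative run. DHX34, at 0.001, was at -0.057 with quantile normalization, -0.038 with median centring, -0.24 after removal of the GC and length trend, and between -0.058 (without siUPF1 2) and 0.061 (without siUPF1 1) with 1 library left out, at -0.032 without siControl 1. GNL2, at -0.009, lay between -0.054 (without siControl 1) and 0.037 (without siControl 2) with 1 library left out, at 0.031 without siUPF1 1. With 2 libraries a group, their number and the unknown depth limit what can be told of small differences.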
